A study of Mus musculus with 4 samples.

Results

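Interferon-stimulated genes are the genes that cells switch on when they sense interferon. The 43 genes described here were taken by symbol from a list of canonical members, and all 43 were found among the 56748 gene IDs of the count table. Each had a mean of at least 1 CPM (counts scaled to library size) over the libraries, and 40 had a mean of at least 10 CPM. The libraries were bulk RNA-seq of cells grown from mouse prostates, labelled as fibroblasts, and each of the 4 conditions has a single library. The vehicle PBS (phosphate-buffered saline) and the compound BuOE were each used without and with radiation. All animals were male C57BL/6 mice obtained at 8 to 10 weeks of age, and no transgene or knockout is named. The irradiated animals received pelvic radiation to a total of 37.5 Gy, split into 7.5 Gy fractions, over 5 days, and their organs were then digested and cultured. BuOE is part of the chemical name of the manganese porphyrin in the series title, a mimic of superoxide dismutase; the title places it weeks after radiation, and its dose and whether animals or cultures of these libraries received it are not stated in the labels. How many animals each culture came from is likewise not stated. The title concerns effects of the compound given after radiation, and the comparisons below set irradiated against unirradiated libraries in each arm, and BuOE against PBS libraries with and without radiation.

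As background, type I interferons bind a receptor made of Ifnar1 and Ifnar2, and the kinases Jak1 and Tyk2 then activate STAT proteins, Stat2 among them. These join Irf9 in a complex called ISGF3, which binds a DNA element named ISRE (interferon-stimulated response element) in the promoters of many interferon-stimulated genes. Interferon gamma uses another receptor, and its signal reaches genes through the GAS element (gamma-activated site), and it drives Irf1 and the large interferon-inducible GTPases most strongly. Many of these genes have a low level in cells that meet no added interferon, and DNA or RNA that reaches the cytosol of damaged cells can induce them as well.

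The promoters of the members were read from RefSeq sequences of build GRCm38.p6, which held 31 of the 43 genes. In the 250 bases before the annotated start, the ISRE core was searched on both strands as GAAA, any 2 bases and GAAA again, which on the other strand reads as TTTC, any 2 bases and TTTC. It was present for 15 of the 31 members (48.4%) and for 3.46% of the 27025 genes with a promoter in the table. The GAS letters TTCNNNGAA, which are their own reverse complement, were present for 8 of 31 members (25.8%) and for 8.13% of all genes. A match is a description of letters and not evidence of binding. The 6 stretches below belong to members with an ISRE core and a mean of at least 10 CPM, those with the highest irradiated-to-unirradiated ratios in the BuOE arm. They are shown to let the element be seen beside the values that follow. Each is 60 bases in the direction of the gene, with every whole core in the stretch in capitals; overlapping cores run together.
Ifit3: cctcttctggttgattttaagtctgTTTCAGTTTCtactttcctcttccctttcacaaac
Ifit3b: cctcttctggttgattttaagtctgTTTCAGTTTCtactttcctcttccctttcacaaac
Rsad2: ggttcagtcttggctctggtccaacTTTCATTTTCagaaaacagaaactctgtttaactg
Bst2: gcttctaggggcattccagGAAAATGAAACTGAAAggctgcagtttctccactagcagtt
Isg15: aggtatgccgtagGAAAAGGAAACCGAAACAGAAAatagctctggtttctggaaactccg
Ifi203: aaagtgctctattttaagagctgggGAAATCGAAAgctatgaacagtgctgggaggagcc

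The Ifit3 stretch lies at chr19:34583382-34583441 on the plus strand and the Ifit3b stretch at chr19:34607778-34607837, also on the plus strand. The 2 stretches are identical, and they belong to an identical run of 169 bases in the 250 bases before each gene. Rsad2 is shown at chr12:26456538-26456597, Bst2 at chr8:71537562-71537621, Isg15 at chr4:156200850-156200909 and Ifi203 at chr1:173942493-173942552, all on the minus strand. The core nearest the start ends 113 bases before the start of Ifit3, 145 before Ifit3b, 111 before Rsad2, 115 before Bst2, 57 before Isg15 and 26 before Ifi203. Within the stretches shown, Bst2 holds 2 overlapping cores and Isg15 holds 3. Ifit3 and Ifit3b each have 2 cores in the 250 bases, of which 1 is shown.

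The library totals ranged from 25.0 M to 35.9 M counts. Levels are CPM scaled with TMM factors, which adjust for differences in RNA composition. A ratio is a log2 ratio of 2 libraries after a prior count of 2, followed by its exact binomial 95% interval, for counting error only. The interval is narrower where counts are higher. A mean of at least 10 CPM was reached by 40 of 43 members and by 9870 of the 14365 genes with at least 1 CPM. Shares of all genes given beside the members are therefore not matched for level. Since each condition is a single library, differences could not be set against the spread between replicates, and no p-value is given. A gene is called changed here when it is at least 2-fold higher or lower. Fewer cells of a type and less RNA per cell cannot be told apart in these bulk libraries. Fibroblast markers (8 genes) summed to between 5603 and 8238 CPM, and epithelial markers (6 genes) to between 2621 and 3793 CPM. Endothelial markers (4 genes) summed to 353 CPM with PBS, 458 with BuOE, 548 with PBS plus radiation and 516 with BuOE plus radiation. RNA of epithelial and endothelial genes was thus present beside that of fibroblasts. The BuOE library stood apart by its neuronal markers. The 4 neuronal markers summed to 274 CPM with BuOE, 84.4 CPM with PBS plus radiation, 15.8 CPM with BuOE plus radiation and 6.61 CPM with PBS. Mitochondrially encoded genes took 0.413% of the PBS counts and 2.65% of the irradiated BuOE counts, with the other two between.

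The interferon-stimulated genes were lowest as a group in the unirradiated BuOE library. Their levels summed to 2274 CPM with PBS, 1756 with BuOE, 2099 with PBS plus radiation and 2346 with BuOE plus radiation. The BuOE library held the lowest level of 26 of 43 members, against 20.5% of the 14365 genes that reached a mean of 1 CPM or more. It held the highest level of 0 of 43 members, against 21.9% of all genes. The irradiated BuOE library held the highest level of 18 members (28.4% of all genes) and the PBS library that of 15 (32.2% of all genes). The irradiated PBS library held the lowest level of 8 members (14.1% of all genes), among them Ifit3, Rsad2, Mx1 and Cmpk2, and the highest of 10 (17.5% of all genes). The PBS library held the lowest level of 5 members (30.1% of all genes) and the irradiated BuOE library that of 4 (35.3% of all genes). All 8 roles into which the members were sorted summed to less in the BuOE library than in the PBS library.

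**Figure D1:**
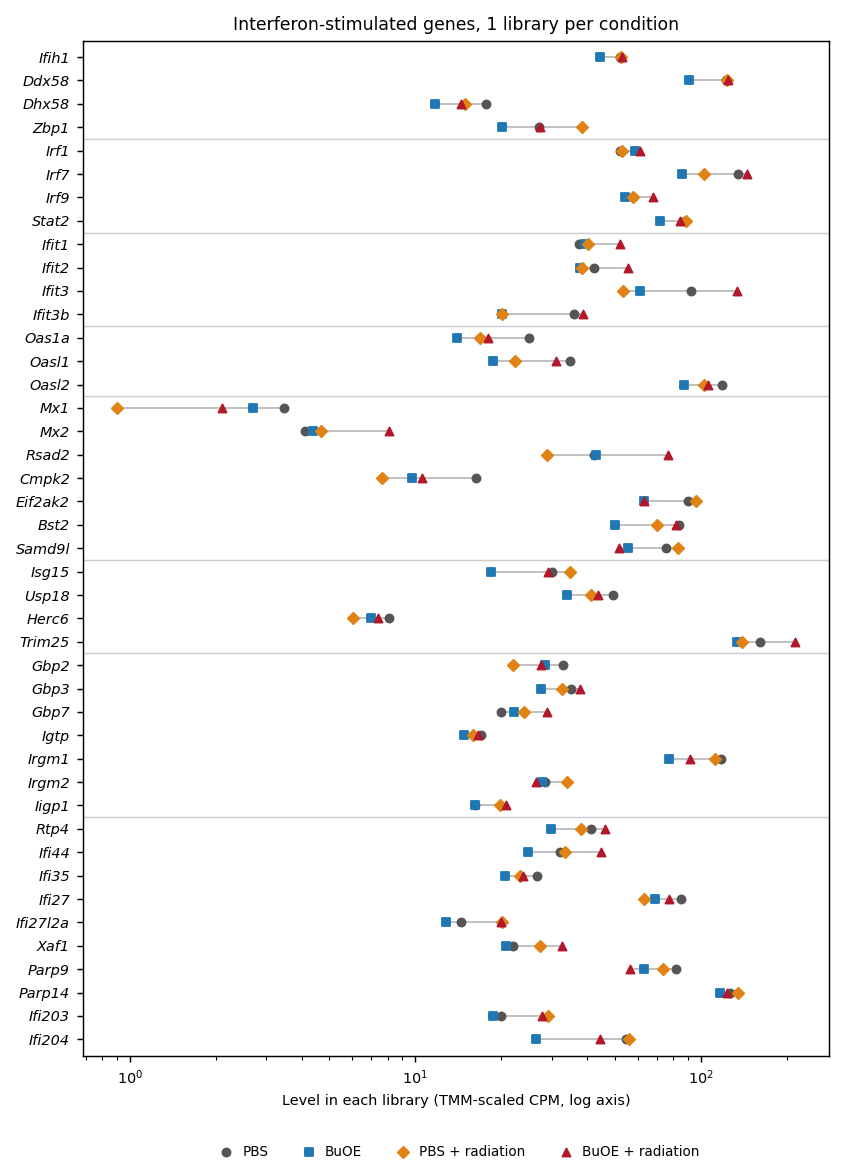
Level of each of the 43 interferon-stimulated genes (rows, grouped by role with lines between roles) in each of the 4 libraries, in TMM-scaled CPM on a log axis; each symbol is 1 library and the grey line spans the 4. Blue squares (BuOE) are the leftmost symbol for 26 of 43 genes and the rightmost for 0 of 43.

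Per length, Bst2 was the most abundant member. Divided by exon length, Bst2 had a mean level of 79.1 CPM per kb over the 4 libraries, Ifi27 of 50.2, Ifit3 of 48.7, Isg15 of 37.2 and Ifi27l2a of 36.3. The lowest were Mx1 (0.606 CPM per kb), Herc6 (0.768) and Mx2 (1.47). C57BL/6 and most other laboratory strains carry a defective Mx1.

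In the PBS arm, members went both ways with radiation, and more counting intervals lay below 0 than above it. Of 43, 20 had a ratio above 0 and 23 below 0, against 50.4% and 49.6% of all genes, and the median log2 ratio was -0.095 against 0.0036 over all genes. The counting interval lay wholly below 0 for 21 members (29.3% of all genes) and wholly above 0 for 11 (30.4% of all genes). Mx1 and Cmpk2, 2 of 43 members, were lower by at least 2-fold, against 1.02% of all genes. At least 2-fold higher were 0 of 43, against 5.62% of all genes. The highest ratio of the list was 0.55, for Ifi203. Ratios of Ddx58, Ifih1, Irf1, Irf9 and Stat2 were at most 0.019 in size and changed sign between settings. With DESeq2 size factors, another scaling, 15 of 43 members were above 0. The median was then -0.12 for the members and -0.024 for all genes.

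In the BuOE arm, most members were higher in the irradiated library. Of 43, 37 had a ratio above 0 and 6 below 0, against 46.2% and 53.8% of all genes, and the median was 0.36 against -0.034 over all genes. The interval lay wholly above 0 for 33 members (29.6% of all genes) and wholly below 0 for 2, Parp9 and Samd9l (34.3% of all genes). The size was modest, since 1 of 43 members, Ifit3, was at least 2-fold higher, against 2.27% of all genes, and 0 of 43 were 2-fold lower, against 4.94% of all genes. This direction depended on the BuOE library as the base. Set against the PBS library instead, the irradiated BuOE library had 21 of 43 members above 0, against 46.7% of all genes, and a median of -0.039 against -0.048 over all genes. The interval was then above 0 for 16 members (34.4% of all genes) and below 0 for 15 (40% of all genes), and 0 of 43 were 2-fold changed in either direction (9.14% of all genes were higher and 6.27% lower).

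**Figure D2:**
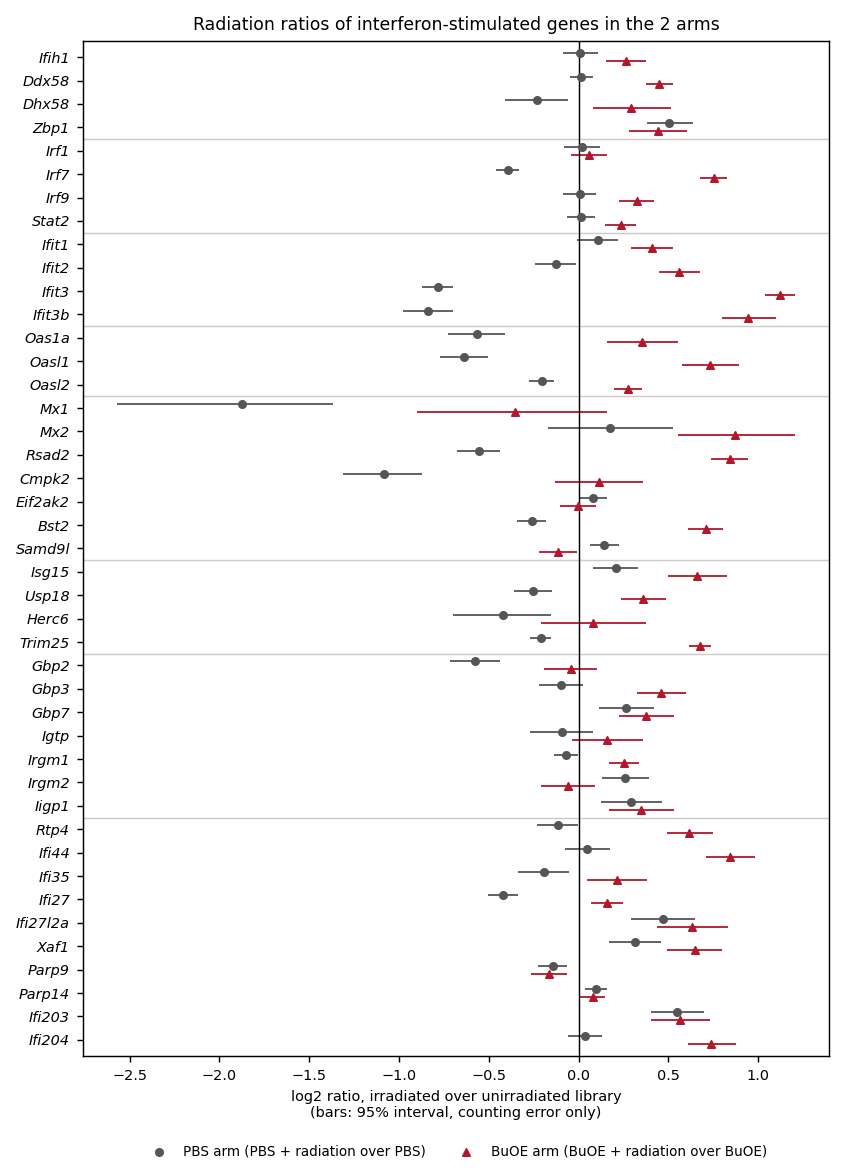
Log2 ratio of the irradiated to the unirradiated library for each member (rows, grouped by role) in the PBS arm (grey circles) and the BuOE arm (red triangles); bars are 95% intervals for counting error only. Ifit3 is at -0.78 in the PBS arm and 1.12 in the BuOE arm, whereas Ifi203 is at 0.55 and 0.56.

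Without radiation, most members were lower in the BuOE than in the PBS library. Of 43, 37 had a ratio below 0 and 6 above 0, against 51.2% and 48.8% of all genes, and the median was -0.35 against -0.011 over all genes. The interval lay wholly below 0 for 30 members (36.1% of all genes) and above 0 for 1, Irf1 (33.9% of all genes). At least 2-fold lower was 1 of 43 members, Ifi204, against 4.23% of all genes, and 0 of 43 were 2-fold higher, against 8.72% of all genes. After radiation the members leaned the other way. Of 43, 30 had a ratio above 0 and 13 below 0 in the irradiated BuOE over the irradiated PBS library, against 43.8% and 56.2% of all genes, and the median was 0.20 against -0.073 over all genes. The interval was above 0 for 22 members (29.9% of all genes) and below 0 for 9 (40.4% of all genes). Rsad2, Ifit3 and Mx1, 3 of 43, were at least 2-fold higher, against 3.81% of all genes, and 0 of 43 were 2-fold lower, against 5.92% of all genes. Among members with a mean of at least 10 CPM this median was 0.087, and without members of near-identical families it was 0.074. Of these 4 pairs the radiation pairs share no library with each other, and neither do the BuOE pairs; each radiation pair shares 1 library with each BuOE pair.

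**Figure D3:**
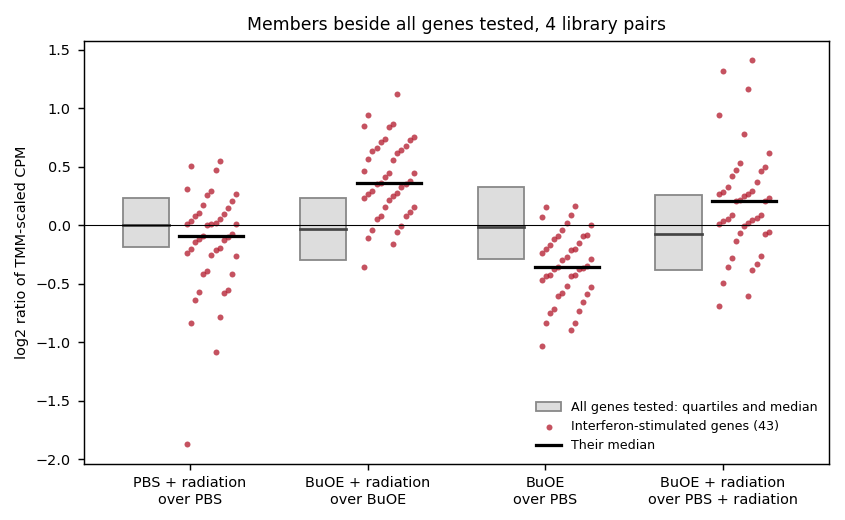
Log2 ratios of the 43 members (red points, black bar at their median) beside the quartiles and median of all 14365 genes tested (grey boxes) for 4 library pairs. The members' median is -0.095, 0.36, -0.35 and 0.20 from left to right.

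The radiation ratio of the BuOE arm minus that of the PBS arm was above 0 for 37 of 43 members and below 0 for 6, against 47% and 53% of all genes, with a median of 0.48 against -0.032 over all genes. Its interval lay above 0 for 31 members (26.3% of all genes) and below 0 for 2, Irgm2 and Samd9l (31% of all genes). In 7 of 43 members the ratios differed by at least 2-fold in that direction, against 2.7% of all genes: Ifit3, Ifit3b, Mx1, Rsad2, Oasl1, Cmpk2 and Irf7. In the other direction 0 of 43 did, against 8.76% of all genes. The interval lay below 0 in the PBS arm and above 0 in the BuOE arm for 16 of 43 members, against 6.47% of all genes. Samd9l was the 1 member with the opposite arrangement, against 9.26% of all genes, and its ratio of -0.11 in the BuOE arm changed sign between settings. With 1 library in each cell of the layout this difference has no test.

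Macrophage and dendritic markers followed a partly similar order. The 9 markers summed to 381 CPM with PBS, 403 with BuOE, 345 with PBS plus radiation and 522 with BuOE plus radiation. Cd68, a lysosomal protein of macrophages, stood at 65.4, 85.7, 64.8 and 126 CPM in that order, and Ptprc, the common leukocyte antigen, at 15.1, 16.6, 14.01 and 23.6 CPM. Adgre1 and Lyz2 were also highest in the irradiated BuOE library, whereas Csf1r, Itgam and Cd14 were highest in the BuOE library, at 37.7, 14.02 and 52.5 CPM against 36.9, 13.8 and 50.9 CPM. Lyz2, the lysozyme of myeloid cells, made up much of the sum, at 204, 173, 178 and 244 CPM. Siglech, a marker of plasmacytoid dendritic cells, had no count in 3 libraries and 1 count in the irradiated PBS library. The 7 lymphocyte markers summed to between 0.9895 and 3.78 CPM. The macrophage sum was thus highest where the interferon-stimulated genes were highest, but the BuOE library, lowest for those genes, did not have the lowest macrophage sum. The part of these cells, of the endothelial and neuronal RNA and of the mitochondrial share in the results was not tested.

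The 4 sensors of viral nucleic acid summed to 219 CPM with PBS, 167 with BuOE, 230 with PBS plus radiation and 219 with BuOE plus radiation. Ddx58 encodes RIG-I, which detects RNA with uncapped triphosphate ends in the cytosol. It stood at 123 CPM with PBS, 91.1 with BuOE, 124 with PBS plus radiation and 124 with BuOE plus radiation. Ifih1, which encodes the long double-stranded RNA sensor MDA5, stood at 52.2, 44.3, 52.6 and 53.1 CPM in that order. The ratio of the BuOE to the PBS library was -0.43 (-0.50 to -0.36) for Ddx58 and -0.24 (-0.35 to -0.13) for Ifih1. Dhx58, which encodes the regulator LGP2, had its highest level in the PBS library, at 17.6 CPM, against 11.7, 15.0 and 14.4 CPM in the others. Zbp1, a sensor of Z-form nucleic acid that can start cell death, was higher after radiation in each arm, at 27.0 and 38.4 CPM without BuOE and at 20.1 and 27.3 CPM with it. Its radiation ratios of 0.51 (0.38 to 0.63) and 0.44 (0.28 to 0.61) had overlapping intervals.

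Among the transcription factors, Irf7 varied most. Irf7 drives the interferon alpha genes and is itself induced by interferon. It stood at 135 CPM with PBS, 86.1 with BuOE, 103 with PBS plus radiation and 145 with BuOE plus radiation, so that radiation came with a lower level in the PBS arm (-0.40, -0.46 to -0.33) and a higher one in the BuOE arm (0.75, 0.68 to 0.83). The ISGF3 subunits varied less. Stat2 stood at 87.9, 72.1, 88.7 and 84.8 CPM and Irf9 at 57.8, 54.4, 58.0 and 68.0 CPM in the same order of libraries. Their radiation ratios in the BuOE arm were 0.23 (0.15 to 0.32) and 0.32 (0.22 to 0.42). Irf1, a factor induced by interferon gamma and by NF-kB, departed from the list: it was 52.3, 58.7, 53.0 and 61.0 CPM, higher in the BuOE than in the PBS library by 0.17 (0.068 to 0.27), with radiation intervals that held 0 in each arm.

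The IFIT family, whose proteins bind foreign RNA and block its translation, held the widest contrast between the arms. Ifit3 stood at 92.1 CPM with PBS, 61.3 with BuOE, 53.4 with PBS plus radiation and 133 with BuOE plus radiation. Its radiation ratio was -0.78 (-0.87 to -0.70) in the PBS arm and 1.12 (1.04 to 1.20) in the BuOE arm, a difference of 1.90 (1.79 to 2.02). Ifit3b, its neighbour on chromosome 19 with the shared promoter stretch printed above, followed the same order with 35.9, 20.1, 20.1 and 38.7 CPM. Reads of these near-identical genes can be split between them, so they are not 2 independent measurements. Ifit2 stood at 42.1, 37.8, 38.5 and 55.7 CPM and Ifit1 at 37.4, 39.3, 40.3 and 52.1 CPM. For these 2 genes the irradiated BuOE library was the highest, and the other 3 lay close together. The family's 4 members were all higher in the irradiated BuOE library than in the BuOE and the irradiated PBS libraries, under each scaling tried. With TMM, 46.2% and 43.8% of all genes were higher in these pairs.

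The OAS family comprises sensors of double-stranded RNA that activate RNase L, and relatives that act without that step. Oasl2 stood at 118 CPM with PBS, 87.2 with BuOE, 103 with PBS plus radiation and 106 with BuOE plus radiation. Oasl1, which restrains translation of Irf7, stood at 34.8, 18.7, 22.4 and 31.2 CPM, and Oas1a at 25.0, 13.98, 16.8 and 17.9 CPM. All 3 were highest in the PBS library (32.2% of all genes) and lowest in the BuOE library (20.5% of all genes). The ratio of the BuOE to the PBS library was -0.89 (-1.05 to -0.75) for Oasl1 and -0.83 (-1.01 to -0.66) for Oas1a, and the radiation ratios were below 0 in the PBS arm and above 0 in the BuOE arm for all 3. Oas1a has close relatives in the same cluster, so its counts are uncertain.

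Antiviral effectors did not move as a block. Rsad2 encodes viperin, which makes a chain-terminating nucleotide. It stood at 42.4 CPM with PBS, 42.9 with BuOE, 28.8 with PBS plus radiation and 76.9 with BuOE plus radiation. Between the irradiated libraries its ratio was 1.41 (1.30 to 1.53), the highest of the list in that pair, while the unirradiated libraries did not differ beyond counting error (0.017, -0.096 to 0.13). Cmpk2, a mitochondrial nucleotide kinase gene that lies beside Rsad2, differed from it: 16.2, 9.73, 7.64 and 10.5 CPM, highest in the PBS library, with a PBS-arm radiation ratio of -1.08 (-1.31 to -0.87). Mx1, a dynamin-like antiviral gene, was low throughout, at 3.47, 2.70, 0.898 and 2.10 CPM, which are 102, 82, 32 and 51 reads, and its PBS-arm ratio was -1.88 (-2.57 to -1.37). Mx2 had a highest level of 8.07 CPM in the irradiated BuOE library and between 4.12 and 4.66 CPM in the others.

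Bst2, which encodes tetherin, a protein that holds budding viruses on the cell surface, stood at 84.1 CPM with PBS, 49.9 with BuOE, 70.3 with PBS plus radiation and 81.5 with BuOE plus radiation. Its level in the BuOE library was below that in each of the other 3. Eif2ak2, which encodes the kinase PKR that halts translation on double-stranded RNA, stood at 90.5, 63.2, 95.8 and 63.0 CPM. Samd9l, an antiviral and growth-restraining gene, stood at 75.2, 55.8, 83.1 and 51.6 CPM. Both of these were lower in each BuOE library than in its PBS counterpart: Eif2ak2 had BuOE ratios of -0.52 (-0.60 to -0.43) without and -0.60 (-0.69 to -0.52) with radiation, and Samd9l of -0.43 (-0.52 to -0.34) and -0.69 (-0.78 to -0.59). Their radiation ratios were smaller, at 0.083 (0.0093 to 0.16) in the PBS arm and -0.0035 (-0.10 to 0.094) in the BuOE arm for Eif2ak2, and at 0.14 (0.064 to 0.22) and -0.11 (-0.22 to -0.0069) for Samd9l. No test of a difference between conditions is possible for them with 1 library each.

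In the ISG15 system, which attaches the ubiquitin-like protein ISG15 to other proteins, Isg15 itself stood at 30.2 CPM with PBS, 18.4 with BuOE, 34.8 with PBS plus radiation and 29.1 with BuOE plus radiation. Usp18, which removes ISG15 and dampens the type I receptor, stood at 49.1, 34.0, 41.1 and 43.7 CPM. The ratio of the BuOE to the PBS library was -0.71 (-0.87 to -0.56) for Isg15 and -0.53 (-0.64 to -0.41) for Usp18. Trim25, the ubiquitin ligase of RIG-I, was the most abundant member by mean CPM, at 162, 134, 140 and 214 CPM, and stood highest in the irradiated BuOE library. Its ratio there was 0.68 (0.62 to 0.74) over the BuOE library and 0.62 (0.56 to 0.68) over the irradiated PBS library. Herc6, the main mouse ISG15 ligase, lay between 6.04 and 8.11 CPM, and its radiation interval in the BuOE arm held 0.

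The interferon-inducible GTPases, which attack the vacuoles of intracellular pathogens and respond most to interferon gamma, did not share 1 order of libraries. Irgm1 stood at 117 CPM with PBS, 77.2 with BuOE, 112 with PBS plus radiation and 91.9 with BuOE plus radiation. Gbp3 stood at 35.1, 27.5, 32.7 and 37.9 CPM, and Gbp2 at 32.8, 28.4, 22.0 and 27.6 CPM. Thus Irgm1 and Gbp3 were lowest in the BuOE library, and Gbp2 in the irradiated PBS library, where its radiation ratio was -0.58 (-0.72 to -0.44). In the same order of libraries, Irgm2 stood at 28.4, 27.7, 34.0 and 26.5 CPM, and Gbp7 at 19.9, 22.2, 23.9 and 28.9 CPM. Iigp1 stood at 16.2, 16.2, 19.8 and 20.7 CPM, and Igtp at 17.03, 14.8, 15.9 and 16.5 CPM. Irgm2 was thus highest in the irradiated PBS library and lowest in the irradiated BuOE library. Of the 7 genes, 5 had a ratio above 0 in the BuOE arm (46.2% of all genes), with a median of 0.25. None was 2-fold changed in any of the 4 pairs, against 1.02% to 8.72% of all genes by pair and direction. Reads of the Gbp and Irg genes can be shared with close relatives.

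The remaining 10 members included 9 with a radiation interval above 0 in the BuOE arm, against 29.6% of all genes. Ifi44, an antiviral gene of the cytosol, stood at 32.2 CPM with PBS, 24.9 with BuOE, 33.3 with PBS plus radiation and 44.7 with BuOE plus radiation, with a ratio of 0.84 (0.71 to 0.98) in that arm. Rtp4, a chaperone of receptor transport, stood at 41.4, 29.9, 38.1 and 46.0 CPM. Xaf1, which promotes cell death, stood at 22.0, 20.8, 27.4 and 32.6 CPM. Ifi44 and Rtp4 thus had their lowest level in the BuOE library and their highest in the irradiated BuOE library, and Xaf1 was higher after radiation in each arm.

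The HIN-200 genes Ifi203 and Ifi204, which encode DNA-binding proteins of the nucleus and cytosol, parted from each other. Ifi204 stood at 54.5 CPM with PBS, 26.6 with BuOE, 55.8 with PBS plus radiation and 44.4 with BuOE plus radiation, and its ratio of the BuOE to the PBS library was -1.04 (-1.16 to -0.91), the lowest of the list. Ifi203 stood at 19.96, 18.7, 29.2 and 27.7 CPM, higher after radiation by 0.55 (0.40 to 0.70) and 0.56 (0.40 to 0.73). Its arm difference of 0.018 (-0.20 to 0.24) held 0. Ifi27l2a, a small mitochondrial membrane protein gene, was likewise higher after radiation in each arm, at 14.5 and 20.04 CPM without BuOE and 12.8 and 19.9 CPM with it. Ifi203 and Ifi204 sit in a cluster of similar genes, so their counts are uncertain.

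Ifi27, a relative of Ifi27l2a, stood at 84.8 CPM with PBS, 69.2 with BuOE, 63.3 with PBS plus radiation and 77.2 with BuOE plus radiation. Ifi35, which binds the adaptor Nmi, stood at 26.6, 20.5, 23.3 and 23.8 CPM. Each was highest in the PBS library. Parp14 and Parp9, enzymes of ADP-ribosylation that act in interferon signalling and the DNA damage response, differed from each other: Parp14 stood at 126, 117, 135 and 123 CPM and Parp9 at 81.5, 63.2, 73.8 and 56.5 CPM. Parp9 was lower in each BuOE library than in its PBS counterpart, by ratios of -0.37 (-0.45 to -0.28) without radiation and -0.39 (-0.48 to -0.29) with it.

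Members with and without an ISRE core in the promoter window did not separate clearly. In the BuOE arm the 15 members with the core had a median radiation ratio of 0.41, the 16 without it of 0.30 and the 12 with no promoter in the table of 0.35. In the PBS arm the medians were -0.095, -0.061 and -0.041, and for the BuOE over the PBS library -0.29, -0.37 and -0.36. An arm difference of at least 2-fold toward the BuOE arm was held by 3 of 15 with the core and 3 of 16 without it. It was held by 1 of the 12 with no promoter, and by 2.7% of all genes. The 3 with the core include Ifit3 and Ifit3b, which are not 2 independent measurements.

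Interferons themselves were at or near zero counts. Of the 10 interferon genes looked up, 7 had no count in any library, and Ifnb1 and Ifng had 1 count each in the BuOE and the irradiated BuOE libraries. Ifne, an epithelial interferon, had 0 counts with PBS, 3 with BuOE, 1 with PBS plus radiation and 2 with BuOE plus radiation. A count of 0 allows up to 3 counts, which equal 0.102, 0.09895, 0.0842 and 0.123 CPM in the 4 libraries in that order, for counting error only. No difference in the ligands was detectable at this depth.

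The receptor genes did not share the low point of the BuOE library. Ifnar1 stood at 108 CPM with PBS, 110 with BuOE, 111 with PBS plus radiation and 87.7 with BuOE plus radiation, and Ifnar2, the other chain of the type I receptor, at 31.9, 35.0, 37.3 and 41.6 CPM. The interferon gamma receptor chains stood at 56.4, 65.8, 67.8 and 89.5 CPM for Ifngr1 and at 90.7, 91.8, 85.5 and 76.3 CPM for Ifngr2. In the irradiated BuOE library, then, Ifngr1 and Ifnar2 had their highest levels and Ifnar1 and Ifngr2 their lowest. Ifnlr1, the specific chain of the interferon lambda receptor of epithelial cells, stood at 8.55, 14.7, 8.53 and 17.9 CPM, and its BuOE ratio was 0.78 (0.56 to 1.01) without and 1.06 (0.85 to 1.28) with radiation. Epithelial markers were also higher in the BuOE libraries, at 3039 and 2621 CPM in the PBS and irradiated PBS libraries and 3793 and 3744 CPM in the BuOE and irradiated BuOE libraries, and their part was not tested. Il10rb, the shared chain of that receptor, lay between 24.4 and 29.2 CPM.

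**Figure D4:**
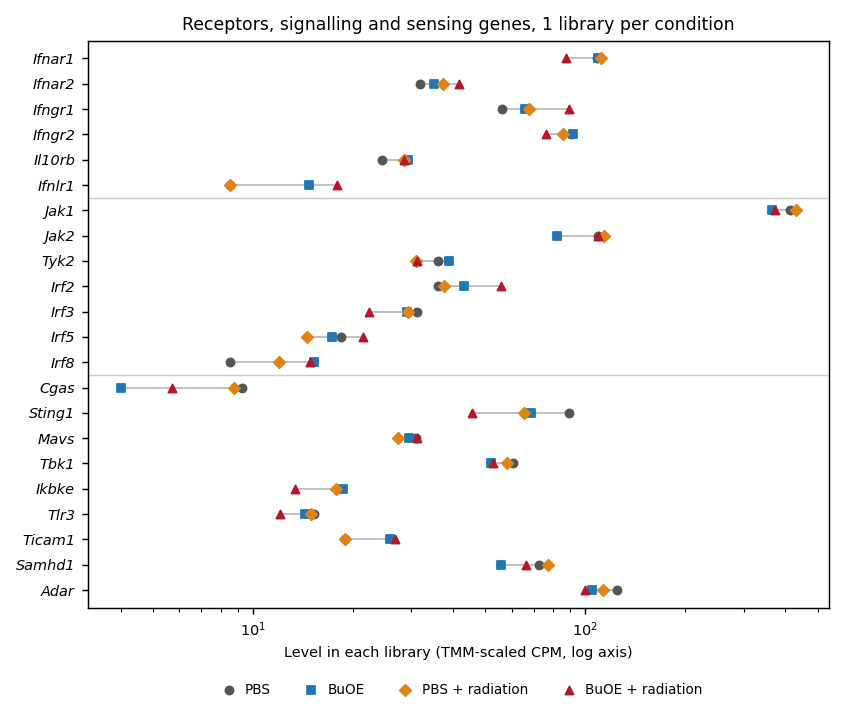
Level of interferon receptor genes (top), 7 receptor signalling genes (middle) and nucleic acid sensing genes (bottom) in each of the 4 libraries, in TMM-scaled CPM on a log axis; each symbol is 1 library. Ifnlr1 is higher in the BuOE libraries (14.7 and 17.9 CPM) than in the PBS libraries (8.55 and 8.53 CPM), and Cgas is lowest in the BuOE library (4.02 CPM).

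Among the signalling genes, the receptor kinases did not share 1 order of libraries. Jak1 stood at 414 CPM with PBS, 366 with BuOE, 430 with PBS plus radiation and 371 with BuOE plus radiation, and Tyk2 at 36.1, 38.9, 30.9 and 31.1 CPM. Jak2, which serves the interferon gamma receptor, stood at 109, 82.0, 114 and 110 CPM and so resembled the sensors, with the highest BuOE-arm ratio of the signalling genes (0.42, 0.34 to 0.50). Irf3, the factor activated by nucleic acid sensors, had the lowest (-0.37, -0.53 to -0.22).

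Of 9 measured genes of nucleic acid sensing, 5 had a ratio above 0 in the BuOE arm, near the 46.2% of all genes. Adar, an RNA-editing enzyme that keeps self RNA from the sensors, stood at 124 CPM with PBS, 105 with BuOE, 113 with PBS plus radiation and 100.1 with BuOE plus radiation. Cgas, the sensor of cytosolic DNA, stood at 9.30, 4.02, 8.76 and 5.72 CPM, and its ratio of the BuOE to the PBS library was -1.19 (-1.53 to -0.90). Sting1, the adaptor downstream of Cgas, stood at 89.3, 68.8, 65.4 and 45.7 CPM, lower in each irradiated library and in each BuOE library than in its counterpart. Trex1 was listed at 0 in all 4 libraries, and whether its RNA was absent or its reads were not counted was not tested. Of the 8 negative regulators, 3 had a ratio above 0 in the BuOE arm, against 46.2% of all genes, with a median of -0.12. Ptpn11, a phosphatase and the most abundant of them, had a ratio of -0.20 (-0.25 to -0.15) there, Trim24 of 0.60 (0.50 to 0.70) and Ptpn6 of -0.43 (-0.68 to -0.19).

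A further list of 36 interferon-stimulated genes that are no members held 35 with a mean of at least 1 CPM. It was chosen with earlier results of these data known, so it is not an independent check of the members. In the BuOE arm 30 of 35 had a ratio above 0 (median 0.31), against 46.2% of all genes, and in the BuOE over the PBS library 7 of 35 did (median -0.27), against 48.8% of all genes. In the PBS arm 15 of 35 were above 0 (median -0.071), against 50.4% of all genes. Between the irradiated libraries 18 of 35 were above 0 (median 0.00016), against 43.8% of all genes, where 30 of the 43 members were. Ifitm3, a membrane protein that blocks viral fusion and the most abundant of the list, stood at 534 CPM with PBS, 442 with BuOE, 541 with PBS plus radiation and 541 with BuOE plus radiation. Isg20, an RNA exonuclease, had the highest BuOE-arm ratio (1.42, 1.26 to 1.58), at 8.04, 15.0, 12.6 and 40.2 CPM. Nmi, which binds Ifi35, had the lowest (-0.49, -0.80 to -0.20). Oas3, chosen after its values were seen, resembled Ifit3: it stood at 19.7, 11.8, 11.6 and 21.7 CPM, with an arm difference of 1.63 (1.36 to 1.90).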

How the data were processed

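The authors deposited 1 table of raw counts per gene, in which each of the 4 libraries is a column. Build GRCm39 and the tools Trim Galore (0.6.4), FastQC, Salmon (1.4.0), edgeR (4.2.2) and featureCounts are listed, with no role or order, in the submitters' processing notes. The settings for strand and for reads that map to several places are not given in the sources used here. Symbols were joined by Ensembl ID; 4675 of 56748 IDs had no symbol, and they stayed in the totals. Exon lengths came from GENCODE M21 and promoters from RefSeq, both on GRCm38, so no coordinates of the count table were used.

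Counts were scaled with TMM (edgeR 4.0.16, R 4.3.3), with factors of 0.987, 1.05, 0.992 and 0.972 for the PBS, BuOE, irradiated PBS and irradiated BuOE libraries. A mean of 1 CPM or more was required, which 14365 genes met. Ratios used a prior count of 2. Intervals of 95% are exact binomial, and those of the difference between the arms use the delta method on 4 counts. No model was fitted, because each group holds 1 library. The steps were tested on simulated counts.

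The members and lists were chosen with earlier results of these data known. Members with a mean of at least 10 CPM are given in each library, and the others by range or where they are extreme. From each pathway list the most abundant gene and the genes at either end of the BuOE-arm ratios are named, with all receptor and Jak genes. A further signalling gene is not reported here. Alternatives were DESeq2 size factors (1.42.0), library size alone, upper-quartile factors, other filters, prior counts of 0.5 and 5, a 1.5-fold limit and leaving out 15 members of near-identical families.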

Additional observations from a re-analysis of the deposited data

Results flagged for a closer look

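For 17 members the radiation ratios of the 2 arms pointed in opposite directions with counting intervals on opposite sides of 0. Of these, 16 were lower in the PBS arm and higher in the BuOE arm, against 6.47% of all genes. The reverse held for 1, against 9.26% of all genes. Some intervals ended close to 0, in the PBS arm at -0.0045 for Rtp4, -0.0058 for Irgm1 and -0.016 for Ifit2. In the BuOE arm that of Samd9l ended at -0.0069. These counts were taken with TMM, and calls so close to 0 can change with the scaling. Each arm is 1 library pair, so the difference was not tested. The difference, BuOE arm minus PBS arm on the log2 scale, was 1.90 for Ifit3 and 1.78 for Ifit3b, which share reads, 1.396 for Rsad2, 1.37 for Oasl1 and 1.15 for Irf7. It was 0.97 for Bst2, 0.92 for Oas1a, 0.89 for Trim25, 0.73 for Rtp4, 0.69 for Ifit2 and 0.61 for Usp18. It was 0.58 for Ifi27, 0.53 for Dhx58, 0.48 for Oasl2, 0.41 for Ifi35 and 0.32 for Irgm1. Samd9l ran the other way, at -0.26. The same differences result when the BuOE ratios with and without radiation are compared, since the layout has 4 libraries.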

How the results depend on the processing

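No paired analysis was possible because each group holds 1 library, and no library could be left out of a group. Scaling moved all genes together: the median of all genes in the BuOE arm was -0.034 with TMM, -0.15 with library size alone and 0.082 with upper-quartile factors, and the members' median lay 0.39 above it each time. With upper-quartile factors 2 members were 2-fold higher in the BuOE arm, against 2.27% of all genes with TMM. The members' median between the irradiated libraries was then 0.34 (0.28 above that of all genes). With library size alone 0 members were 2-fold lower in the BuOE over the PBS library, against 4.23% of all genes with TMM. With a mean of at least 10 CPM, 1 member was 2-fold lower in the PBS arm, since Mx1 was left out. Of all genes with at least 1 CPM, 1.02% were 2-fold lower. The all-gene shares beside these scaling and filter alternatives are those with TMM at 1 CPM, so they are not matched to them. The members' median between the irradiated libraries was 0.087 at the 10 CPM filter. With a 1.5-fold limit, 5 members were lower in the PBS arm (3.56% of all genes), 14 higher in the BuOE arm (8.3%), 10 lower in the BuOE over the PBS library (10.6%), and 6 higher (11%) and 2 lower (14.6%) between the irradiated libraries. Without near-identical families, 28 members remained. In the PBS arm 1 was 2-fold lower (1.02% of all genes), and in the BuOE arm 0 were 2-fold higher (2.27%). In the BuOE over the PBS library 0 were 2-fold lower (4.23%) and 3 were above 0 (48.8%). Between the irradiated libraries 18 were above 0 (43.8%), 1 was 2-fold higher (3.81%) and the median was 0.074. In a comparison added after the data were seen, the irradiated BuOE library set against the PBS library gave a median of -0.039. There 21 members were above 0 (46.7% of all genes) and 0 were at least 2-fold higher (9.14%). Of single members, 7 changed sign in some setting in the BuOE arm, the largest at 0.11 in size, and 4 in the BuOE over the PBS library. Library depth limits Mx1, Mx2, Herc6 and the interferons most.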

Other observations

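The members lie on 16 chromosomes, and neighbours did not always share a pattern. On chromosome 12, Rsad2 was highest in the irradiated BuOE library (76.9 CPM), whereas its neighbour Cmpk2 was highest in the PBS library (16.2 CPM). On chromosome 19, all 4 IFIT genes, of which Ifit3 and Ifit3b share reads, were highest in the irradiated BuOE library (28.4% of all genes). Gbp5 and Ifitm1, chosen after their values were seen, stood apart among the further interferon-stimulated genes. Gbp5, a GTPase, was also highest there, at 15.7 CPM against 3.78 CPM in the PBS library, 6.66 CPM in the BuOE library and 3.93 CPM in the irradiated PBS library. Ifitm1, a relative of Ifitm3, ran on another order and was low in the PBS library alone, with 1.16 CPM against 4.62 to 5.39 CPM in the others.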
